A study of Drosophila melanogaster with 2 samples.

Results

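Cytochrome P450 (Cyp) and UDP-glycosyltransferase (Ugt, also named glucuronosyl transferase) genes were examined in hindgut RNA from mature and young adults of Drosophila melanogaster. Members were taken by name and position, without regard to their values: protein-coding genes with a symbol of Cyp or Ugt followed by a digit, lying on chromosome arm 2L up to position 22247875 or on 3L up to position 5149852. The rule gave 26 genes, 14 Cyp and 12 Ugt, out of 23932 features in the table, and 24 of them lay on 2L and 2 on 3L. Another 93 protein-coding genes with such names lay outside these stretches and are not described, because the names there did not match the counts well enough to be read gene by gene.

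The study set mature hindguts against young ones to find genes that differ between these ages. Mature adults were dissected 4 days after emergence, spent at 18 °C, and young adults straight after emerging; every animal carried byn-Gal4, a driver named for the hindgut regulator brachyenteron, and was raised at 25 °C. The labels name no transgene driven by it and no other allele. For each age the labels give 100 to 150 guts and 3 replicates, without saying how guts were shared among the replicates. Age and adult temperature changed together and cannot be told apart. The labels give ileal cells as the cell type, but whole hindguts were dissected, and the byn gene itself lay outside the stretches, so its value gives no check of the tissue. The data hold 1 mean over all libraries and 1 fold change per gene, with no value per library; all fold changes run young over mature, so a negative log2 value is higher in mature guts.

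Cytochrome P450s are haem enzymes that insert oxygen into steroids, fatty acids, hormones and foreign compounds, taking electrons in the endoplasmic reticulum from NADPH-cytochrome P450 reductase. Ugt enzymes join a sugar from a UDP-sugar to small lipophilic molecules, which makes them more soluble and easier to excrete; insect enzymes are known to use mainly glucose, despite the family's name. In insects both families are best known from fat body, midgut and Malpighian tubules, the excretory tubules that empty into the gut where the hindgut begins. Insect P450s fall into clans named CYP2, CYP3, CYP4 and mitochondrial, and many members of the CYP3 and CYP4 clans and of the Ugt family stand side by side in the genome as products of tandem duplication.

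The ends of the stretches were set by genes whose level is known to be high in any cell. The 19 cytoplasmic ribosomal protein genes inside the stretches had a median mean of 57853 normalized counts and a lowest of 28247, against a median of 1.33 for the 66 elsewhere, of which 44 were below 10, per the authors' deposited table. Part of that contrast is built in, since low ribosomal protein genes ended a stretch. The means of all features summed to 2.94e+07 normalized counts, and depth per library was not analysed here. Whole tissue was sequenced, so fewer cells of a type and less RNA per cell cannot be told apart.

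All 26 genes had a mean above 0, but a few genes made up most of each family. Among the Ugt genes, Ugt37D1, Ugt301D1 and Ugt36D1 had means of 5026, 3794 and 3642 normalized counts and together held 90.8% of the family's summed mean of 13726 per the authors' deposited table. Among the Cyp genes, Cyp4ac3, Cyp28a5, Cyp303a1 and Cyp28d1 had means of 2261, 1288, 822 and 500.1 and held 86.3% of a summed mean of 5643 per the authors' deposited table. Each family therefore had a handful of abundant members and a long tail.

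Per length, the order of levels was Ugt37D1 at 2572 normalized counts per kb of exon, Ugt301D1 at 1910, Ugt36D1 at 1601, Cyp4ac3 at 1408 and Cyp28a5 at 729. Cyp28d1 at 309 and Cyp303a1 at 295 were the only others above 260 per kb, the median of the 2772 protein-coding genes of the stretches with a mean above 0. Ugt37D1 stood at the 87.4th percentile of those genes and Cyp4ac3 at the 79.8th. The median level per kb was 69.2 over the 14 Cyp genes and 119 over the 12 Ugt genes, with ranges of 0.623 to 1408 and 0.757 to 2572. Ugt37D1, Ugt301D1 and Ugt36D1 lay above every Cyp gene. No spread over libraries can be put on these levels.

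In the tail, 5 genes were too low for an adjusted p. Cyp4d21, known as sex-specific enzyme 1 of the male head, had a mean of 1.14, Ugt36F1 of 1.27, Ugt307A1 of 2.25, Cyp6a16 of 2.31 and Ugt37E1 of 5.45 normalized counts per the authors' deposited table. Their log2 fold changes lay between -0.32 and 0.73 and are not read further. The other 21 genes, 12 Cyp and 9 Ugt, were tested.

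**Figure D1:**
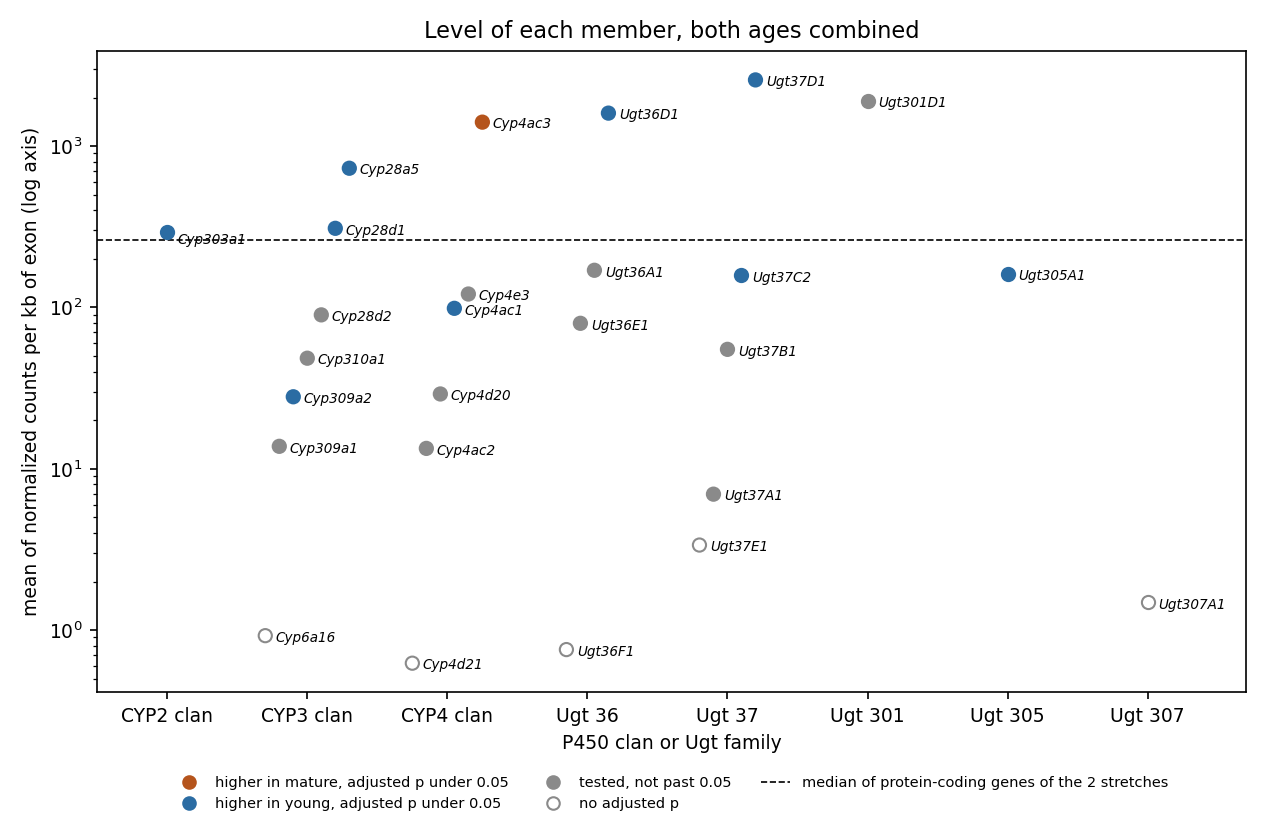
Level of each of the 26 genes, in normalized counts (mean of all libraries) per kb of exon on a log axis, by P450 clan or Ugt family, coloured by the test between ages. Cyp4ac3, Cyp28a5, Cyp28d1 and Cyp303a1 and Ugt37D1, Ugt301D1 and Ugt36D1 lie above the dashed line at 260, the median of protein-coding genes of the stretches.

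Between the ages, most of the genes that differed were higher in young guts in both families. At an adjusted p under 0.05 in DESeq2's Wald test, 1 of the 21 tested genes was higher in mature guts, the abundant Cyp4ac3, and 9 were higher in young guts. That is 10 genes, or 47.6% of those tested, beside 40.3% called among all 2604 tested features of the stretches. In mature guts 4.76% of the members were higher, beside 19.7% of all tested features, and in young guts 42.9% were higher, beside 20.7%. The median log2 fold change was 0.71 over the 21 members and -0.0070 over all tested features of the stretches. No test compared the members with other genes, and the members were chosen with earlier results of these data known.

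The families showed similar counts. Of 12 tested Cyp genes, 1 was higher in mature and 5 in young guts, with a median log2 fold change of 0.77; of 9 tested Ugt genes, none was higher in mature and 4 were higher in young guts, with a median of 0.49. No Ugt gene was higher in mature guts at an unadjusted p under 0.05 either, and 5 were higher in young guts at that level, beside 24.1% and 24% of all tested features of the stretches. Including genes that missed the threshold, the fold change was negative for 3 Cyp and 2 Ugt genes and positive for 9 and 7, and these signs were the same after all fold changes had been shifted to put the median of the ribosomal protein genes, 0.17, at 0. That shift moved the calls over all tested features of the stretches to 808 higher in mature and 412 higher in young guts, against 512 and 538 before it, while the members had 1 and 8 after it, against 1 and 9 before.

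**Figure D2:**
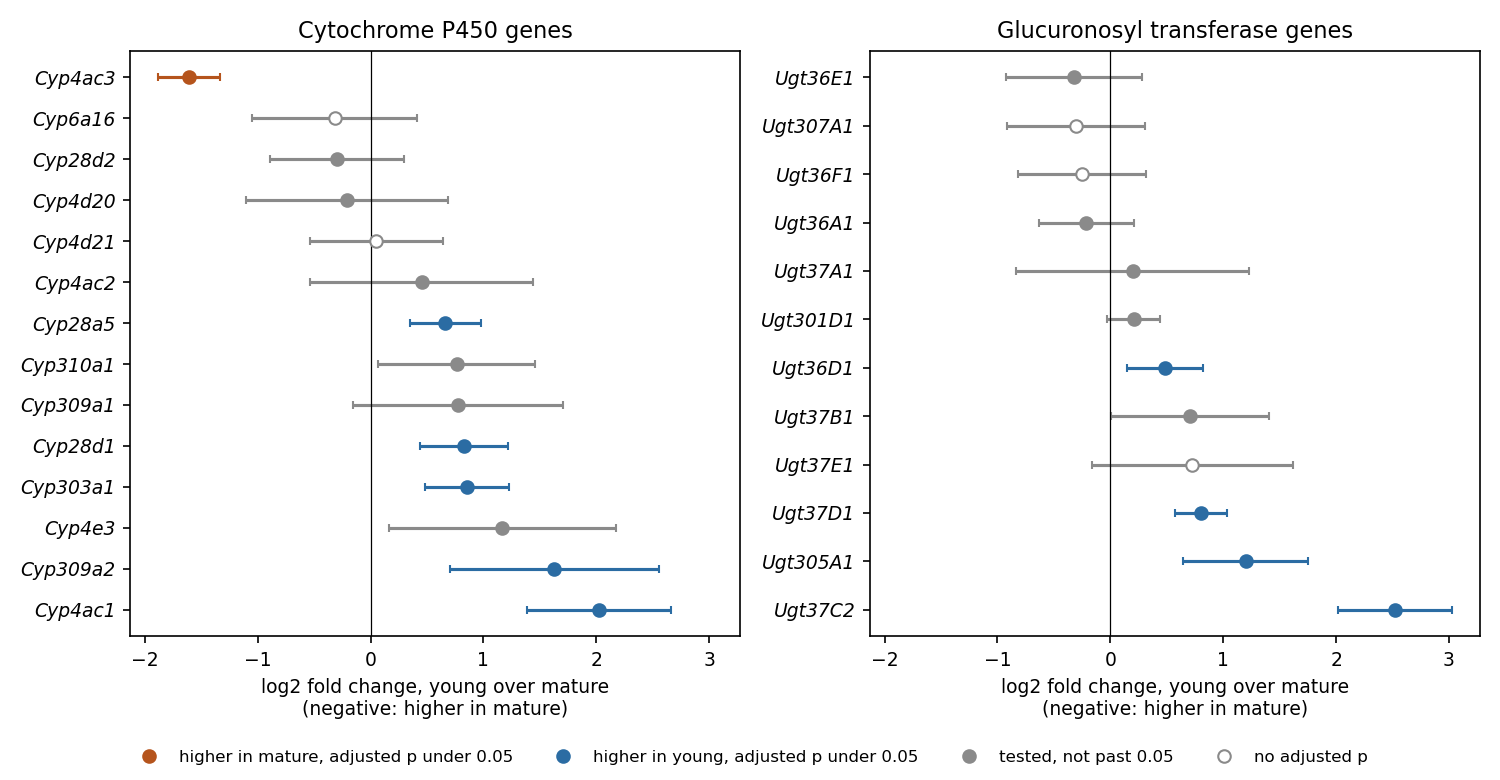
Log2 fold change, young over mature, of each Cyp gene (left) and Ugt gene (right), with bars of 95% confidence interval from the deposited standard errors; open circles have no adjusted p. Cyp4ac3, at -1.61, is the single coloured point left of 0, and Ugt37C2, at 2.52, lies farthest right.

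The CYP4 clan, whose best-known members hydroxylate fatty acids, held both the strongest change toward mature guts and the strongest P450 change toward young guts. Cyp4ac3 (2L, 5268498 to 5270329, plus strand) was 3.05-fold higher in mature guts (log2 -1.61, SE 0.14, adjusted p = 2.85e-29) per the authors' deposited table. Cyp4ac1 (2L, 5264001 to 5265899, plus strand) was 4.07-fold higher in young guts at a mean of 164 normalized counts (log2 2.02, SE 0.32, adjusted p = 5.59e-09) per the authors' deposited table. The gene between them, Cyp4ac2, had a mean of 22.9 and a log2 fold change of 0.45 (adjusted p = 0.565) per the authors' deposited table. Cyp4d20 on 3L, at a mean of 52.8, had a log2 fold change of -0.21 (adjusted p = 0.798) per the authors' deposited table.

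The remaining tested CYP4 gene, Cyp4e3, is known from Malpighian tubules, where lowering it makes flies more sensitive to permethrin. Its log2 fold change of 1.17 was among the larger ones, yet it missed the threshold (SE 0.51, adjusted p = 0.0685) per the authors' deposited table. That standard error was larger than those of 97.9% of the 1106 tested features whose mean was within a factor of 1.5 of its mean of 219, and their median was 0.25. The standard errors of the 6 Malpighian tubule markers in the stretches were ranked among features of like mean in the same way. The urate oxidase gene Uro stood at the 98.8th percentile, Irk3 at the 98.2nd and ZnT35C at the 97.7th. The markers hgo, tio and tsh, all of lower mean, stood at the 88.2nd, 65.6th and 60.9th. Markers of other tissues ran from the 0.10th percentile, for Jon25Bii, to the 98.9th, for LManVI, both of the midgut list. A link between Cyp4e3 and tubule RNA in the samples was not tested.

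The CYP3 clan, which contains many P450s that act on foreign compounds, had 3 of 6 tested genes higher in young guts and none in mature guts. Of all tested features of the stretches, 20.7% were called higher in young and 19.7% in mature guts. None of the 6 was higher in mature guts at an unadjusted p under 0.05 either, beside 24.1% of those features. With 6 genes, a count of 0 is not read as a trait of the clan. Cyp309a2 (2L, 2564886 to 2573037, minus strand) was 3.09-fold higher in young guts at a low mean of 51.5 (log2 1.63, SE 0.47, adjusted p = 0.00264) per the authors' deposited table. Cyp28d1 (2L, 5210460 to 5212445, plus strand), a gene associated with nicotine resistance in flies, was 1.78-fold higher in young guts (log2 0.83, SE 0.20, adjusted p = 0.000180) per the authors' deposited table. Cyp28a5 (2L, 13977302 to 13979569, plus strand), the most abundant gene of the clan here, was 1.58-fold higher in young guts (log2 0.66, SE 0.16, adjusted p = 0.000197) per the authors' deposited table. Cyp310a1, Cyp309a1 and Cyp28d2, with log2 fold changes of 0.76, 0.77 and -0.30, did not pass per the authors' deposited table.

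The CYP2 clan was represented by Cyp303a1 alone, a gene required for the development of external sensory bristles. Cyp303a1 (2L, 16294183 to 16296969, plus strand) was 1.81-fold higher in young guts (log2 0.85, SE 0.19, adjusted p = 4.27e-05) per the authors' deposited table. Of its 2787 exonic bases, 919 are shared with heix, a gene on the opposite strand with a mean of 2075 and a log2 fold change of 0.07 (adjusted p = 0.714) per the authors' deposited table. Whether strand was used in counting is not given in the sources used here, and reads from the shared part may have been counted for either gene, or for neither.

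Among the Ugt genes, Ugt37C2 (2L, 16794211 to 16796009, plus strand) had the largest change of all members. It was 5.74-fold higher in young guts at a mean of 284 (log2 2.52, SE 0.26, adjusted p = 3.80e-21) per the authors' deposited table. Ugt37D1 (2L, 16799025 to 16801584, plus strand), the most abundant member, was 1.74-fold higher in young guts (log2 0.80, SE 0.12, adjusted p = 9.35e-11) per the authors' deposited table. Ugt305A1 (3L, 4059770 to 4061923, plus strand) was 2.30-fold higher in young guts at a mean of 321 (log2 1.20, SE 0.28, adjusted p = 0.000140) per the authors' deposited table.

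Ugt36D1 (2L, 18823548 to 18826716, plus strand) was 1.40-fold higher in young guts (log2 0.49, SE 0.17, adjusted p = 0.0181) per the authors' deposited table. That call ended when fold changes were centred on the ribosomal protein genes (log2 0.31, adjusted p = 0.150). The standard error of Ugt36D1 was larger than those of 97.4% of the 965 tested features of like mean, whose median was 0.10. The second most abundant Ugt gene, Ugt301D1, had a log2 fold change of 0.21 with a 95% interval of -0.03 to 0.44 (adjusted p = 0.192) per the authors' deposited table. Its abundance gave it a narrow interval, which leaves out a 2-fold difference in either direction. Ugt36A1, Ugt36E1, known from olfactory neurons, Ugt37A1 and Ugt37B1 did not pass, with log2 fold changes of -0.21, -0.32, 0.20 and 0.71 per the authors' deposited table.

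The authors' own list of 132 features higher in young guts, out of 23932 in the table, held 2 of the members, Ugt37C2 and Cyp4ac1. Their list of 91 features higher in mature guts held none. With so few features listed, these 2 counts are not compared. The lists were drawn from the same comparison. Cyp4ac3 was thus absent from the mature list, despite its log2 fold change of -1.61 (adjusted p = 2.85e-29) per the authors' deposited table. Both lists are far shorter than the calls at an adjusted p under 0.05. Of 10458 tested features in the whole table, 1705 were called toward young guts and 1608 toward mature guts. The cutoff behind the lists and their share of features from the stretches were not analysed here. When the Wald test was run with a 2-fold change as its null, 3 of the 21 tested members passed, Cyp4ac3 higher in mature and Cyp4ac1 and Ugt37C2 higher in young guts, beside 4.69% of all tested features of the stretches, 2.27% higher in mature and 2.42% higher in young guts.

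**Figure D3:**
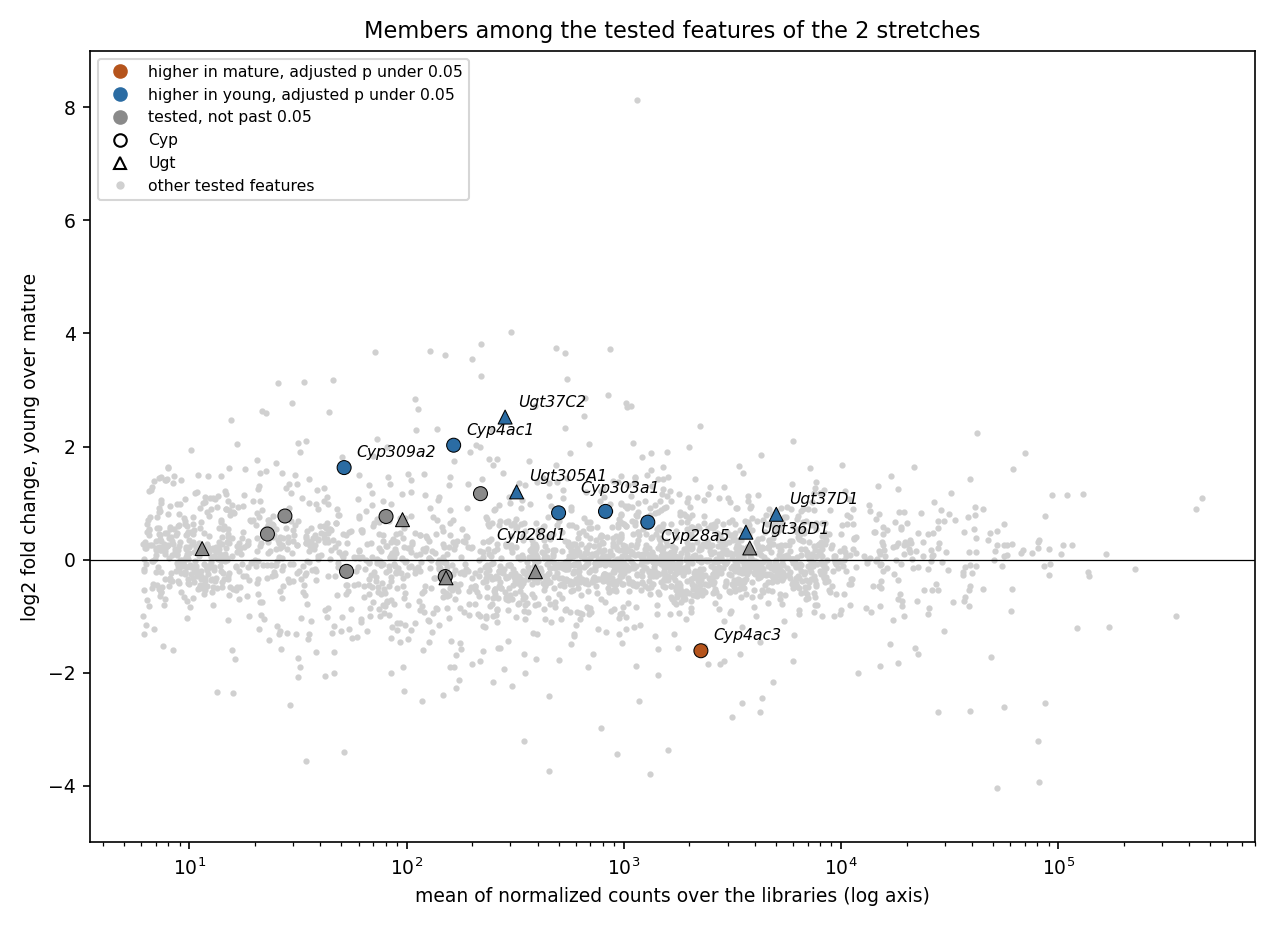
Log2 fold change, young over mature, against the deposited mean (normalized counts, all libraries) on a log axis, for the 21 tested members (circles for Cyp, triangles for Ugt) and, in light grey, the other tested features of the stretches. The called members span means from 51.5 for Cyp309a2 to 5026 for Ugt37D1, and Cyp4ac3 is the single called one below 0.

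Many members stand in tandem. With neighbours taken as consecutive genes of a family at most 10 kb apart, 13 members formed 8 neighbouring pairs in 5 runs, each pair on the same strand and with no other protein-coding gene between. Gaps ran from 42 bases between Cyp4ac2 and Cyp4ac3 to 1114 bases between Cyp28d2 and Cyp28d1. Levels per kb differed 2.03-fold between Cyp309a1 and Cyp309a2, 3.44-fold in the Cyp28d pair and 7.38-fold or more in the other 6 pairs. In 5 pairs both genes were tested, and in 4 of these the interval of the difference between the fold changes left out 0. These intervals treat the estimates of neighbours as independent, although they come from the same libraries. They also make no allowance for estimates of low genes, which may be drawn toward 0.

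The run of 3 Cyp4ac genes spans both directions. On the log2 scale, the fold change of Cyp4ac1 exceeded that of Cyp4ac2 by 1.57 (95% interval 0.39 to 2.75), and that of Cyp4ac2 exceeded that of Cyp4ac3 by 2.06 (1.04 to 3.09). Cyp4ac2 had a low mean of 22.9 and a standard error of 0.50, so its fold change may be drawn toward 0 and both differences may be off. Between the outer genes, compared after their values were seen, the difference was 3.63 (2.94 to 4.33). Cyp4ac1 and Cyp4ac3 thus moved in opposite directions, 2598 bases apart, and Cyp4ac3 was 14.3-fold more abundant per kb over both ages combined. The nearby Cyp28d pair also differed: the fold change of Cyp28d1 exceeded that of Cyp28d2 by 1.13 (0.42 to 1.84). For Cyp309a2 over Cyp309a1 the difference was 0.86, and its interval of -0.46 to 2.17 did not resolve a direction.

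In the Ugt37 run, Ugt37C2 and Ugt37D1 were both higher in young guts, but not equally. The fold change of Ugt37C2 exceeded that of Ugt37D1 by 1.72 on the log2 scale (95% interval 1.16 to 2.27), a pair compared after its values were seen, while Ugt37D1 was 16.3-fold more abundant per kb. Between them lies Ugt37E1, which was not tested at its mean of 5.45. In the Ugt36 run, the fold change of Ugt36D1 exceeded that of Ugt36E1 by 0.81 (0.11 to 1.50), and Ugt36F1 was not tested. Ugt36E1 shares 48 exonic bases with the more abundant CG17597, which was higher in young guts (log2 0.92) per the authors' deposited table. How alike the neighbours' sequences are was not analysed here, and reads that match more than 1 of them may have been split or dropped by the counting.

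**Figure D4:**
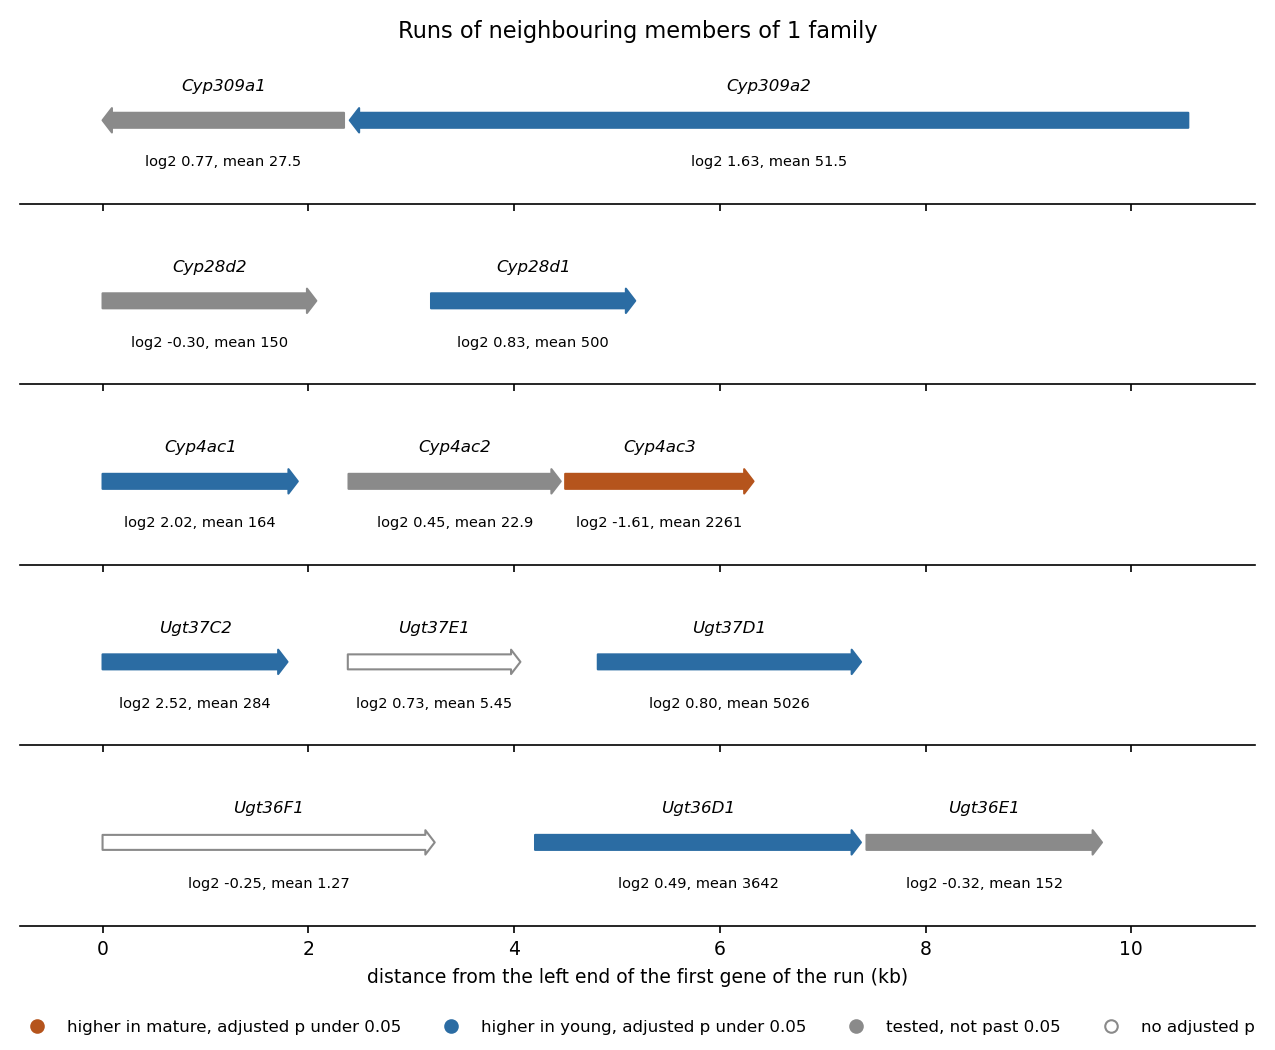
The 5 runs of neighbouring members drawn to scale, with distance in kb from the left end of each run; arrows point along transcription and carry the log2 fold change, young over mature, and the mean. In the third run Cyp4ac1, at 2.02, and Cyp4ac3, at -1.61, lie on either side of the uncalled Cyp4ac2.

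Several members lie inside or across more abundant genes on the opposite strand. The Cyp4ac run lies within the span of tkv, a receptor gene of the Dpp pathway, with a mean of 7781 and a log2 fold change of 0.26 (adjusted p = 0.0173) per the authors' deposited table, and shares no exonic base with it. Cyp310a1 lies within MESR3 (mean 17923, log2 0.24) and Cyp4d20 within the supervillin gene Svil (mean 36383, log2 -0.27), again with no shared exonic base, per the authors' deposited table. The fold changes of Cyp4ac1 and Cyp4ac3 lay on opposite sides of that of tkv. For the other nested genes the intervals were wide and held the fold change of the surrounding gene: -0.54 to 1.44 for Cyp4ac2, 0.07 to 1.46 for Cyp310a1 and -1.10 to 0.69 for Cyp4d20. Ugt307A1 shares 11 exonic bases with Pvf2, whose mean was 388 per the authors' deposited table. Of the 18 members without any such overlap, 14 were tested and 7 were higher in young guts, beside 20.7% of all tested features of the stretches. None of them could be higher in mature guts, also at an unadjusted p under 0.05. Cyp4ac3, the single member higher in mature guts, lies within tkv and was left out by this split, which was made after seeing the data.

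Genes listed as possible partners of these enzymes moved in both directions. Of 4 genes listed for P450 electron supply and haem synthesis and described here, 2 were higher in mature and 2 in young guts, with a median log2 fold change of -0.11. The cytochrome b5-related gene Cyt-b5-r and Coprox, for the haem enzyme coproporphyrinogen oxidase, had log2 fold changes of -0.46 (adjusted p = 0.0150) and -0.42 (adjusted p = 1.66e-05) per the authors' deposited table. The ferredoxin gene Fdx2 had a log2 fold change of 0.92 (adjusted p = 6.86e-12) per the authors' deposited table. No Cyp member belongs to the mitochondrial clan, and whether Fdx2 supplies any of them was not tested. Cpr, the reductase on which microsomal P450s depend, was abundant at a mean of 20479 and had a log2 fold change of 0.20 (adjusted p = 0.0131) per the authors' deposited table; centred on the ribosomal protein genes it was 0.02 and not called.

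Of the sugar-nucleotide list, the 2 genes in the stretches were higher in young guts and none in mature guts. They were mmy, for an enzyme making UDP-N-acetylglucosamine, with a log2 fold change of 0.50, and GlcAT-S, for a glucuronyltransferase, with 0.67, per the authors' deposited table. Neither makes the UDP-glucose that insect Ugt enzymes use. At an unadjusted p under 0.05 the count for mature guts was also 0. Over all tested features of the stretches, 20.7% were called higher in young and 19.7% in mature guts. A list of 2 genes is too short to compare with these shares.

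Of 14 ABC transporter genes, which encode ATP-driven export pumps among others, 6 were higher in mature and 4 in young guts, with a median log2 fold change of -0.19. All 14 had a mean of at least 100. With the adjustment limited to such means, 26.1% of tested features of the stretches were higher in mature and 26.3% in young guts. Among the ABC transporter genes higher in mature guts, CG17646 and the sulfonylurea receptor gene Sur had log2 fold changes of -0.96 and -0.57 per the authors' deposited table. CG5853 was 3.98-fold higher in young guts (log2 1.99, SE 0.32, adjusted p = 8.17e-09) per the authors' deposited table, with a standard error above those of 98.3% of features of like mean. CG31793 was also higher in young guts (log2 0.49, adjusted p = 2.74e-05) per the authors' deposited table. MRP, a multidrug resistance protein gene with a mean of 15321, had a log2 fold change of -0.07 (adjusted p = 0.545) per the authors' deposited table, and was called higher in mature guts (-0.25) after centring on the ribosomal protein genes. CG7627 and CG31689 were likewise called higher in mature guts only after that centring, which made 9 of 14.

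The other lists were short within the stretches. The glutathione list had 3 genes in the stretches, the thioredoxin gene Trx2 and the peroxiredoxin genes Prx6a and Prx4, and no glutathione transferase. Of these, Trx2 was higher in mature guts (log2 -0.37, adjusted p = 0.000241) per the authors' deposited table and none was higher in young guts, also at an unadjusted p under 0.05. Of 3 tested dehydrogenases and other enzymes, the aldehyde dehydrogenase gene Aldh was higher in young guts (log2 0.48, adjusted p = 4.32e-06) per the authors' deposited table. Uro, listed also as a tubule marker, was not called (log2 -1.16, adjusted p = 0.0732) per the authors' deposited table. The alcohol dehydrogenase gene Adh was not called either (log2 0.25, adjusted p = 0.689) per the authors' deposited table. Adh had a mean of 81.4, and Adhr, annotated over the same span, had a mean of 0 and was not tested. Reads from that span may have been counted for either gene, or for neither. Of 3 nuclear receptor genes from a list of xenobiotic regulators, Hnf4 (log2 -0.61, adjusted p = 3.20e-13) and Hr38 (log2 -1.05, adjusted p = 7.72e-05) were higher in mature guts per the authors' deposited table. No gene of that list was higher in young guts, also at an unadjusted p under 0.05. Over all 6 lists, 11 of 29 tested genes had a higher level in mature and 9 in young guts, or 16 and 8 after centring on the ribosomal protein genes. Of all tested features of the stretches, 19.7% were higher in mature and 20.7% in young guts. After that centring the shares were 31% and 15.8%, so the shift moved the background toward mature guts as well.

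**Figure D5:**
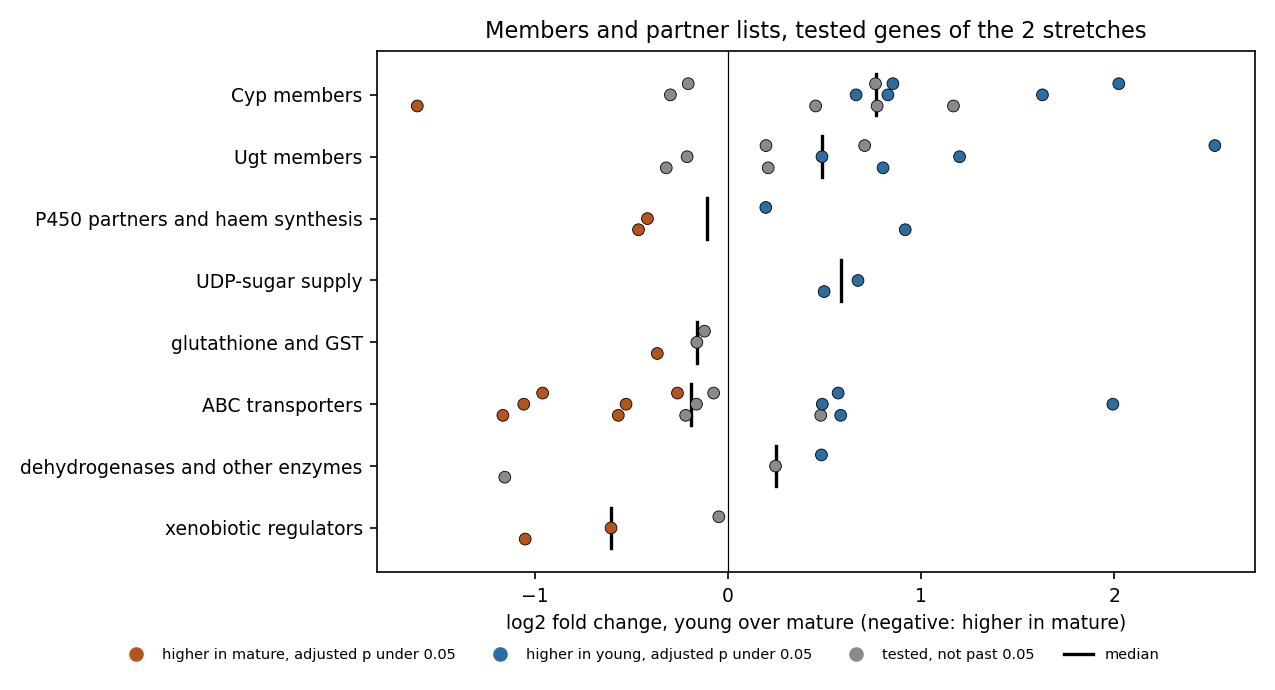
Log2 fold change, young over mature, of each tested gene of the 2 families and of 6 partner lists within the stretches; vertical bars are medians. The medians of the Cyp and Ugt genes, 0.77 and 0.49, lie right of 0, and that of the ABC transporters, -0.19, lies left of it.

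Markers of other tissues were listed in the same guts. Of 13 Malpighian tubule markers, 6 lay in the stretches, with a summed mean of 2284 and none at 0; none was called in either direction by DESeq2, and at an unadjusted p under 0.05 Uro was higher in mature and ZnT35C in young guts. Uro, at a log2 fold change of -1.16, was called higher in mature guts after centring on the ribosomal protein genes. Both fat body markers in the stretches, the storage protein gene Lsp1beta and Fbp2, were higher in young guts, 7.15-fold at a mean of 109 and 2.54-fold at a mean of 83.8, per the authors' deposited table. Fbp2 lost its call after that centring. Of 5 hemocyte markers, crq was higher in mature and 4 were higher in young guts, with NimC4 13.4-fold higher at a mean of 488, per the authors' deposited table; Pxn, 1 of the 4, lost its call after the centring (log2 0.14, adjusted p = 0.353). Of 10 tested midgut markers 2 were higher in each: Mal-B2, 2.49-fold, and Jon25Bi, 3.00-fold, in mature guts, and Try29F, 14.1-fold, and LManII, 1.76-fold, in young guts, per the authors' deposited table. Mal-B1 was called higher in mature guts only after the centring (log2 -0.67, adjusted p = 0.0283). Jon25Biii, also of the midgut list, had no p in the deposited test despite its mean of 778 (log2 -0.46). Of 3 muscle markers, Msp300 was higher in mature guts (log2 -0.21), and Mhc and sls were higher in young guts (log2 0.90 and 0.63), per the authors' deposited table. Of the 4 oenocyte markers Cpr alone lay in the stretches. LManIV was the single marker in the stretches at a mean of 0 per the authors' deposited table. The part of these tissues in the changes of Cyp and Ugt genes was not tested.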

How the data were processed

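Hindgut RNA from mature and young adults was extracted with Trizol and read as pairs on a NovaSeq, per the labels' protocols. The submitters' processing notes list Trim Galore, HISAT2 and DESeq2, with no version, and the build BDGP6; how reads were counted, and with which strand setting, is not given in the sources used here. The mean column deposited by the authors is a signal, the mean of normalized counts. The fold change and standard error deposited by the authors were read as log2 values, DESeq2's base, with the direction set by the authors' separate age lists. The Wald score deposited by the authors is their quotient. The p-value and adjusted p-value deposited by the authors cover 14966 and 10458 features, and recomputing the Benjamini-Hochberg adjustment gave the same values. Standard errors had a ceiling of 0.53 and a median of 0.30 at means of 1 to 2 but 0.49 at means of 10 to 100, and estimates for low genes may therefore be drawn toward 0.

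With no counts per library, edgeR could not be run and the deposited DESeq2 test stands, at an adjusted p under 0.05. The replicates may be technical; the labels do not say. Symbols, strands, exons and 1-based positions came from Ensembl's BDGP6 annotation, release 115, which held 23851 of 23932 identifiers. Levels between genes were divided by the length of all annotated exons. All members are named; from each partner list up to 4 genes with the smallest adjusted p were named, with others that describe its count, and the marker genes named were chosen after their values were seen. A listed gene is not reported here and was left out of its list's counts. Members, lists and alternatives were chosen with earlier results of these data known. The recomputed Wald test and adjustment were tested on simulated data. Values and figures were made in Python 3.11.15 (matplotlib 3.10.9, scipy 1.17.1, numpy 2.4.6, pandas 2.3.3).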

Additional observations from a re-analysis of the deposited data

How the results depend on the processing

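The 10 calls among the members gave counts within a factor of 1.5 at an adjusted p under 0.01 (9, without Ugt36D1), with no low-mean filter (10), at a mean of at least 100 (9), over protein-coding features (10) or the stretches alone (10), after centring on the ribosomal protein genes (9, without Ugt36D1), and without members sharing exonic bases with a more abundant gene (9). No direction changed under these. The number of members tested was 26 with no low-mean filter, 14 at a mean of at least 100 and 19 without shared exonic bases. It was 21 in the other settings, so the counts of calls are not shares. Of all tested features of the stretches, 40.3% were called in the test as reported, and 32.4%, 27.9%, 52.4%, 43.8%, 42% and 46.9% under the first 6 of these settings in that order. Against a 2-fold change, 3 members passed, 2 Cyp and 1 Ugt, beside 4.69% of all tested features (122 of 2604). Leaving out members inside the span of a more abundant gene as well, an alternative chosen after seeing the data, left 3 Cyp genes called. It took out Cyp4ac3, the single member higher in mature guts, so none of those left could be higher in mature guts. Fewer genes were then counted. Of the 5 tested neighbour pairs, 4 had an interval without 0, also within 5 kb, and 3 of 4 without the pair that overlaps a more abundant gene. Leaving out replicates, other normalizations and edgeR were not run, since no values per library were analysed here. No paired analysis was possible because libraries have no columns of their own in the deposited tables. The low means limit Cyp309a1, Cyp4ac2, Cyp4d20 and Ugt37A1, whose intervals include 2-fold differences. Among the other tested members that were not called, the intervals of Cyp310a1, Ugt37B1 and Cyp4e3 include a 2-fold difference too.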

Other observations

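The nearest non-member protein-coding genes on either side of the members' 18 runs and single genes, leaving out genes that overlap them, were 36 distinct genes, of which 26 were tested; 6 were higher in mature and 5 in young guts. Of the 8 protein-coding genes that overlap a member, 7 were tested; 2, Pvf2 and Svil, were higher in mature and 2, tkv and CG17597, in young guts, per the authors' deposited table. Cyp28a5, higher in young guts, lies between the Nimrod receptor genes NimC1 and NimC2, 532 and 556 bases away, at means of 26.6 and 14.4 per the authors' deposited table, while Cyp28a5 had a mean of 1288. NimC1 was 2.90-fold higher in young guts (adjusted p = 0.00965) and NimC2 had a log2 fold change of 0.59 (adjusted p = 0.456) per the authors' deposited table. The gene to the right of Ugt301D1, CG10211, was higher in mature guts (log2 -2.04, adjusted p = 1.34e-37) per the authors' deposited table, whereas Ugt301D1 was not called. The muscle gene Msp300 ends 264 bases left of Cyp28d2 and had a mean of 136873 and a log2 fold change of -0.21 per the authors' deposited table, beside -0.30 for Cyp28d2. The gene dib, which encodes a P450 of ecdysone synthesis and is no member by its symbol, has its left end 368 bases right of Ugt305A1 and was listed at a mean of 0 per the authors' deposited table. These genes were chosen after their values were seen.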
